A study of Mus musculus with 24 samples.

Results

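A set of 9 genes, listed as genes that neurons switch on when they are active, was followed in the mouse hippocampus after neonatal hypoxia-ischemia. They were Npas4, Arc, Bdnf, Inhba, Nptx1, Nptx2, Homer1, Ptgs2 and Vgf, picked by gene name as effectors of neuronal activity, and they are 9 of the 22314 named genes in the deposited table. All 9 passed the filter on low values, which kept 18364 genes. The pups were labelled Neil1-KO, Neil2-KO or wild type (WT), for Neil1 and Neil2, DNA glycosylases that start the repair of oxidized bases. Hypoxia-ischemia was induced on postnatal day 10, and the ipsilateral (injured) and contralateral hippocampus were taken at 6 h or 3 h. The 12 groups of genotype, side and time held 2 libraries each, and the same-numbered libraries of both sides were taken as 1 animal, from the series' design text. The contralateral side served as the comparison, so all 24 libraries came from pups that had undergone the insult. Each library is whole hippocampus, so fewer cells of a type and less RNA per cell cannot be told apart.

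Calcium that enters a firing neuron activates kinases that act on transcription factors such as CREB already present in the nucleus, and genes including Npas4 and Arc are then read within minutes. The proteins made next change the synapse: BDNF is a secreted growth factor, the neuronal pentraxins gather AMPA-type glutamate receptors, the short form of HOMER1 loosens the postsynaptic scaffold, and VGF is cut into secreted peptides. In the hippocampus several of these genes, though not each to the same degree, are known for their strong response to seizures and to learning. Ptgs2, the inducible cyclooxygenase, and Inhba, the activin A subunit, are used by neurons and also by other cells after injury.

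RefSeq promoter windows of the GRCm38.p6 mouse assembly, each from 250 bases before to 50 bases after an annotated start, were found for 5 of the 9 genes (Npas4, Bdnf, Homer1, Inhba and Ptgs2), which had 12 windows in all. The CREB half-site TGACG, searched on both strands, was in 4 of these 12 windows and in 20.8% of all 32851 RefSeq windows of the same length. Those 4 windows are shown because they belong to a gene that was higher on the injured side (Npas4) and to 3 that were lower (Bdnf, Homer1 and Ptgs2). Capitals mark TGACG or its reverse complement CGTCA, and each sequence is read 5′ to 3′ on the gene's strand.
Npas4, chr19:4989922-4990221, minus strand: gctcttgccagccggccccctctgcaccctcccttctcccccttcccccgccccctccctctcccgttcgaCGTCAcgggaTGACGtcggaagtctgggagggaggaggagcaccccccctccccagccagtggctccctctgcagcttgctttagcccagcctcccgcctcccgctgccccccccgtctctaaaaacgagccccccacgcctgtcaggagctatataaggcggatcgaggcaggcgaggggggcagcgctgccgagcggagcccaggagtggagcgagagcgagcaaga
Bdnf, the third of its 7 windows, chr2:109692186-109692485, plus strand: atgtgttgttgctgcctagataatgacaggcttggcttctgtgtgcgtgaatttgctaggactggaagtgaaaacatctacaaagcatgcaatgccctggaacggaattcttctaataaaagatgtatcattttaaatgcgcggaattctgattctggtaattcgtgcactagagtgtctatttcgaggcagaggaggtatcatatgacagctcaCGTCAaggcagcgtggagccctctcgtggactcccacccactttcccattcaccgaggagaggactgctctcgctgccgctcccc
Homer1, the first of its 2 windows, chr13:93303507-93303806, plus strand: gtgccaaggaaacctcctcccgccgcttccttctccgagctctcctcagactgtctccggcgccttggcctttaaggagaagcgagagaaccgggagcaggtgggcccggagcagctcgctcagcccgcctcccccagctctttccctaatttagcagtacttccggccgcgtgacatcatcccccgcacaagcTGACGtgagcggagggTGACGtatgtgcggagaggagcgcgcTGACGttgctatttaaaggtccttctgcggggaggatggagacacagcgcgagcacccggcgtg
Ptgs2, chr1:150099781-150100080, plus strand: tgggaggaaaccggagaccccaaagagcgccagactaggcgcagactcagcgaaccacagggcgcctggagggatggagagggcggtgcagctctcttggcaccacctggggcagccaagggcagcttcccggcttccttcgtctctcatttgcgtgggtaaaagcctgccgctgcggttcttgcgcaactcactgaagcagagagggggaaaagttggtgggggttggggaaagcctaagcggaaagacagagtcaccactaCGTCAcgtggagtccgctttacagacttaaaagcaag

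Counted from the start site, the half-sites of Npas4 lay at -179 and -169, those of Homer1 at -56, -40 and -14, and that of Bdnf at -35. In Ptgs2 the half-site lay after the start, at 14. The full palindrome TGACGTCA was in none of the 12 windows and in 1.79% of all windows. TCGTG, a core that NPAS4 binds, was in 3 of the 12 windows, all of Bdnf, against 16.0% of all windows. The hypoxia-factor core ACGTG was in 5 of the 12 windows (Ptgs2, 2 of Bdnf and both of Homer1) and in 19.6% of all windows. It overlapped the half-site in Ptgs2, in the third Bdnf window and in the first Homer1 window. The AP-1 site TGANTCA was in 1 window (Bdnf; 7.81% of all windows), the kappaB site in 1 (Bdnf; 4.51%) and the EGR site GCGTGGGCG in none (0.612%). These matches describe letters in the windows, and binding was not measured.

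The libraries held 17771293 to 29252067 reads. Libraries were grouped by their titles, because those titled Neil2-KO carry a genotype tag that names Neil1-KO. The labels were checked on the deleted genes: Neil2 had 0 to 3.02 normalized counts in Neil2-KO libraries and at least 15.2 in the others, while Neil1 had 91.6 to 155 in those labelled Neil1-KO, against 56.8 to 123 in WT libraries. Neil1 was thus not lower in the libraries with that label, and every direction drawn from those libraries rests on the label alone. These gene counts do not show whether part of the gene is missing. The 12 hippocampal subfield markers summed to 13166 to 43118 normalized counts in the ipsilateral libraries and 49013 to 68039 in the contralateral ones, and none averaged under 3. Ttr, a choroid plexus gene, was above 10000 in 3 ipsilateral and 5 contralateral libraries. In labelled Neil1-KO at 6 h Ttr had 11314 and 19798 ipsilaterally, against 194 and 154 contralaterally. In WT at 6 h it had 310 and 259 ipsilaterally, against 30933 and 27741 contralaterally. Ttr and side are thus mixed in these groups, in opposite directions. Labelled Neil1-KO ipsilateral 6 h replicate 2 stood apart, with 12.5% of its reads on lines with no gene name and the lowest summed neuron markers (79554). Xist was above 1000 on both sides in 3 of the 12 animals. They were labelled Neil1-KO 3 h replicate 2, labelled Neil1-KO 6 h replicate 2 and Neil2-KO 6 h replicate 2. No WT animal was among them, so Xist and genotype are partly mixed in comparisons with WT. Fits without these animals also leave out the library that stood apart.

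Side of the brain split the 9 genes into a pair that rose and 7 that fell. Over the mean of the 3 genotypes at 6 h, Npas4 was 19.0-fold and Arc 5.30-fold higher on the ipsilateral side. Bdnf, Inhba, Nptx1, Nptx2, Homer1, Ptgs2 and Vgf were lower, from 0.296-fold (Bdnf) to 0.699-fold (Vgf). At 3 h the same division was seen, with Npas4 15.2-fold and Arc 5.91-fold higher and the other 7 between 0.378-fold (Bdnf) and 0.739-fold (Vgf). All 9 passed limma's test at a Benjamini-Hochberg adjusted p under 0.05 at both times. The background was high: 24% of all genes tested were called higher and 24.7% lower at 6 h, and 14.1% higher and 17.4% lower at 3 h. The median log2 fold change of the 9 genes was -0.77 at 6 h and -0.83 at 3 h, against 0.02 and 0.01 over all genes tested. The only call among these that leaving out 1 library ended was Vgf at 3 h.

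**Figure D1:**
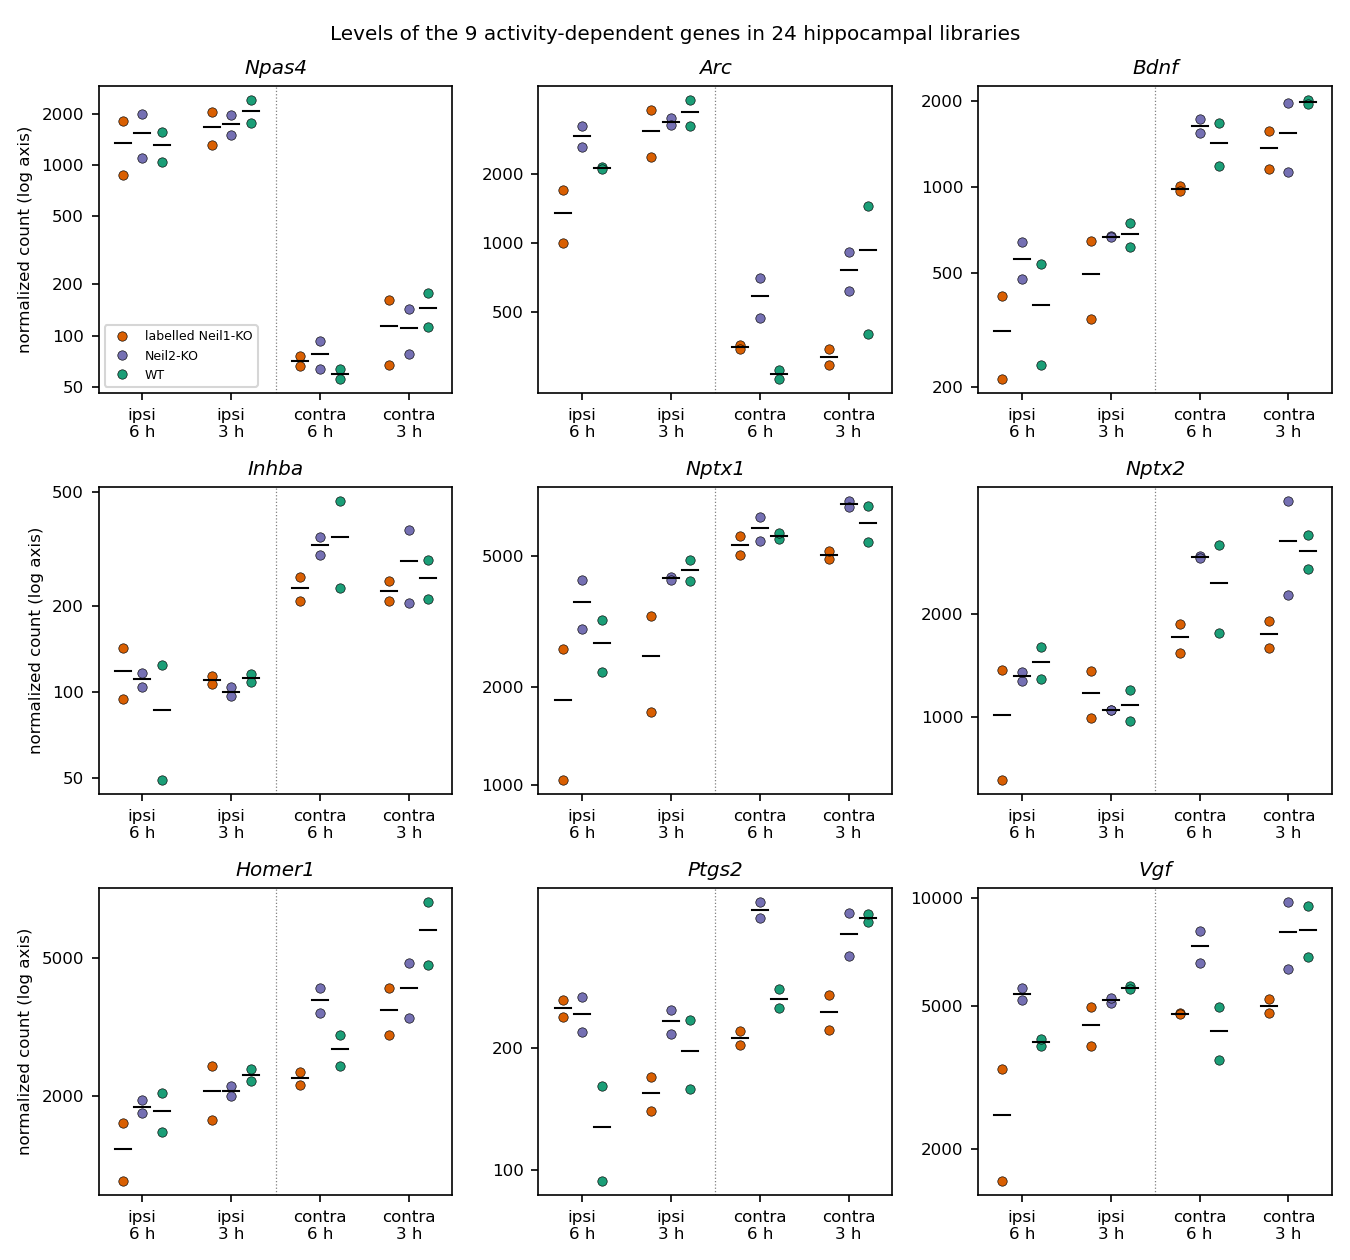
Normalized counts (log axis) of the 9 genes in the 24 libraries, ipsilateral left of contralateral and 6 h left of 3 h. Each point is 1 library, colour is the genotype and the bar is the mean of 2. Npas4 sits between 871 and 2402 ipsilaterally and between 55.9 and 178 contralaterally, while Bdnf lies at 213 to 753 ipsilaterally and 968 to 2025 contralaterally.

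Npas4 encodes a neuron-specific transcription factor that responds to calcium entry. At 6 h it had 1801 and 871 normalized counts in labelled Neil1-KO ipsilateral libraries, against 66.5 and 76.8 in the contralateral ones. In Neil2-KO it had 1097 and 1999 ipsilaterally, against 93.4 and 63.8 contralaterally, and in WT 1558 and 1047, against 64.4 and 55.9. The sides were far apart in every genotype. At 3 h the ipsilateral counts were 1303 and 2032 in labelled Neil1-KO, 1964 and 1488 for Neil2-KO, and 2402 and 1753 for WT. The contralateral counts at 3 h were 162 and 67.7 in labelled Neil1-KO, 145 and 78.9 for Neil2-KO, and 178 and 112 for WT. All 12 ipsilateral libraries lay above all 12 contralateral ones, which held for 3.41% of all genes tested. The ratio of the sides within an animal was 8.07 to 31.4 with a median of 17.2. The log2 fold change was 4.25 ± 0.24 (SE, limma adjusted p = 6.4e-10) at 6 h and 3.93 ± 0.24 (adjusted p = 3.1e-09) at 3 h.

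Arc encodes a cytoskeleton-associated protein that moves AMPA receptors off the synapse and whose RNA travels into dendrites. At 6 h Arc had 1704 and 999 normalized counts in labelled Neil1-KO ipsilateral libraries, against 357 and 345 contralaterally. Neil2-KO had 2613 and 3256 ipsilaterally, against 703 and 473, and WT had 2158 and 2101, against 279 and 255. At 3 h the ipsilateral values were 2374 and 3817 in labelled Neil1-KO, 3497 and 3279 for Neil2-KO, and 4213 and 3243 for WT. The contralateral ones at 3 h were 293 and 346 in labelled Neil1-KO, 617 and 910 for Neil2-KO, and 1457 and 399 for WT. Arc was higher on the ipsilateral side in 12 of 12 animals, by 2.89-fold to 11.0-fold. The sides overlapped only through the WT contralateral 3 h library with 1457, which exceeded the lowest ipsilateral library (999, the one that stood apart). That WT library also had the highest Ttr (35647), and with a term for Ttr the WT difference at 3 h was 2.42 (adjusted p = 0.0025), against 2.28 ± 0.40 (adjusted p = 0.0028) without it. Over the 3 genotypes Arc differed by 2.41 ± 0.23 at 6 h (adjusted p = 2.0e-07) and 2.56 ± 0.23 at 3 h (adjusted p = 3.4e-07).

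Bdnf, the growth factor that signals through TrkB, moved the other way. At 6 h Bdnf had 417 and 213 normalized counts in labelled Neil1-KO ipsilateral libraries, against 1008 and 968 contralaterally. Neil2-KO had 476 and 643 ipsilaterally, against 1743 and 1545, and WT had 537 and 239, against 1675 and 1187. At 3 h labelled Neil1-KO had 347 and 648 ipsilaterally, against 1580 and 1164. Neil2-KO had 674 and 669 ipsilaterally at 3 h, against 1131 and 1980, and WT had 753 and 617, against 2025 and 1957. Every ipsilateral library was below every contralateral one, as for 5.84% of all genes tested. Bdnf fell by 1.76 on the log2 scale at 6 h (SE 0.21, adjusted p = 2.3e-06) and by 1.40 at 3 h (SE 0.21, adjusted p = 7.2e-05). The counts cover the whole gene, so transcripts from its separate promoters were not resolved. Among genes that make, carry or bind BDNF, Sort1, which sorts it for release, fell at 6 h (-0.99 ± 0.09) and 3 h (-0.70 ± 0.09). Ntrk2, the TrkB gene, fell at 3 h (-0.42 ± 0.08) and had -0.19 ± 0.08 at 6 h (adjusted p = 0.056), where it passed without labelled Neil1-KO ipsilateral 6 h replicate 2 (-0.26, adjusted p = 0.0045). Ngfr, the p75 receptor gene, rose at 6 h (1.53 ± 0.20) and had 0.37 ± 0.20 at 3 h (adjusted p = 0.17). Furin, a protease that cuts the BDNF precursor, rose by 0.14 ± 0.05 at 6 h and had -0.09 ± 0.05 at 3 h.

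Inhba encodes the subunit that pairs to form activin A. The 6 ipsilateral libraries at 6 h had 49.4 to 143 normalized counts (median 111), against 209 to 465 (median 277) in the 6 contralateral ones. At 3 h they had 96.8 to 116 (median 107), against 205 to 367 (median 228). The ipsilateral values at 3 h were the tightest of any gene here. All 12 ipsilateral libraries lay below all 12 contralateral ones, as for 5.84% of all genes tested. Inhba fell by 1.52 (SE 0.21, adjusted p = 1.1e-05) at 6 h and by 1.20 (SE 0.21, adjusted p = 0.0003) at 3 h. A processed pseudogene on the opposite strand, B230303A05Rik, overlaps Inhba, as an antisense gene overlaps Bdnf, and whether strand was used in counting is not given in the sources used here. Homer1 is overlapped on its own strand by Gm47075 and Gm47088, and neither is among the named genes counted. Of 6 other activin genes, Fst, whose product binds and blocks activin, rose (1.20 ± 0.27 at 6 h and 0.98 ± 0.27 at 3 h). The receptor genes Acvr1c (-1.66 ± 0.24 and -0.66 ± 0.24) and Acvr1b (-0.42 ± 0.10 at both times) fell, and Acvr2a, Acvr2b and Inhbb did not pass. Inhbb passed at 6 h without labelled Neil1-KO ipsilateral 6 h replicate 2 (0.35, adjusted p = 0.043).

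Nptx1 and Nptx2 encode secreted pentraxins that cluster AMPA receptors at excitatory synapses. Nptx1 had 1037 to 4226 normalized counts (median 2800) in the ipsilateral libraries at 6 h, against 5044 to 6609 (median 5685) contralaterally. At 3 h Nptx1 had 1672 to 4862 (median 4214) ipsilaterally, against 4903 to 7372 (median 6297). For Nptx1 all 12 ipsilateral libraries lay below all 12 contralateral ones, as for 5.84% of all genes tested. Nptx1 fell by 1.20 (SE 0.19, adjusted p = 3.9e-05) at 6 h and by 0.78 (SE 0.19, adjusted p = 0.0038) at 3 h. Nptx2 had 655 to 1594 (median 1322) ipsilaterally at 6 h, against 1540 to 3164 (median 2383). At 3 h Nptx2 had 972 to 1357 (median 1049) ipsilaterally, against 1583 to 4258 (median 2479). One ipsilateral library, WT 6 h replicate 2 (1594), reached into the contralateral range of Nptx2. Nptx2 fell by 0.90 (SE 0.18, adjusted p = 0.0005) at 6 h and by 1.21 (SE 0.18, adjusted p = 7.5e-05) at 3 h. The anchoring receptor gene Nptxr (-1.35 ± 0.18 at 6 h and -0.87 ± 0.18 at 3 h) and the AMPA subunit gene Gria1 (-1.28 ± 0.18 and -0.63 ± 0.18) also fell. Gria4, the other AMPA subunit listed, differed by 0.03 ± 0.08 at 6 h and 0.04 ± 0.08 at 3 h and did not pass.

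Homer1 links metabotropic glutamate receptors to the SHANK scaffold, and its short activity-induced form cannot be told from the long forms in these gene counts. Homer1 had 1136 to 2045 normalized counts (median 1729) ipsilaterally at 6 h, against 2156 to 4103 (median 2723) contralaterally. At 3 h it had 1699 to 2440 (median 2168) ipsilaterally, against 3003 to 7249 (median 4426). The sides did not overlap within either time, but the share of all genes for which this held was not computed. Over both times they overlapped, as the highest ipsilateral library at 3 h exceeded the lowest contralateral ones at 6 h. Homer1 fell by 0.77 (SE 0.14, adjusted p = 0.00013) at 6 h and by 1.03 (SE 0.14, adjusted p = 1.9e-05) at 3 h. All 7 listed partners fell at both times, with medians of -0.90 at 6 h and -0.74 at 3 h. They were the receptor gene Grm5, the scaffold genes Shank1, Shank2, Shank3 and Dlgap1, and the sister genes Homer2 and Homer3. Of all genes tested, 24.7% fell at 6 h and 17.4% at 3 h, and neuron markers fell as well, as described below. Dlgap1 had -1.27 ± 0.09 at 6 h and -0.86 ± 0.09 at 3 h, and Homer3 had the smallest differences (-0.51 ± 0.11 and -0.30 ± 0.11).

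Vgf is processed by prohormone convertases into neuropeptides. It had 1625 to 5597 normalized counts (median 3955) ipsilaterally at 6 h, against 3542 to 8110 (median 4862) contralaterally. At 3 h Vgf had 3865 to 5696 (median 5180) ipsilaterally, against 4771 to 9743 (median 6585). The sides overlapped at both times, and Vgf was lower on the ipsilateral side in 10 of 12 animals. The exceptions were WT 6 h replicate 2 (ratio 1.14) and labelled Neil1-KO 3 h replicate 2 (ratio 1.04). Vgf fell by 0.52 (SE 0.15, adjusted p = 0.0079) at 6 h and by 0.44 (SE 0.15, adjusted p = 0.033) at 3 h. Without the 3 animals of high Xist the value at 6 h was -0.28 and did not pass (adjusted p = 0.17). The call at 3 h was kept in 15 of the 24 fits that left out 1 library, with values of -0.54 to -0.33. It was lost without any of 9 libraries, all at 3 h: WT ipsilateral replicates 1 and 2, WT contralateral replicate 2, labelled Neil1-KO ipsilateral replicate 1 and contralateral replicates 1 and 2, and Neil2-KO ipsilateral replicates 1 and 2 and contralateral replicate 2. Of 5 related granin and processing genes, Pcsk2 (-1.0 ± 0.09 at 6 h and -0.58 ± 0.09 at 3 h) and Chgb (-0.58 ± 0.09 and -0.33 ± 0.09) fell, Scg3 rose (0.28 ± 0.08 and 0.26 ± 0.08), and Chga and Cpe did not pass.

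Ptgs2 makes the first prostaglandin precursor and is expressed by excitatory neurons as well as by cells of inflamed tissue. At 6 h Ptgs2 had 264 and 239 normalized counts in labelled Neil1-KO ipsilateral libraries, against 221 and 204 contralaterally. Neil2-KO had 220 and 267 ipsilaterally, against 422 and 461, and WT had 161 and 93.8, against 280 and 251. Labelled Neil1-KO was the only genotype with higher ipsilateral values at 6 h. At 3 h labelled Neil1-KO had 170 and 140 ipsilaterally, against 223 and 271. Neil2-KO had 217 and 250 at 3 h, against 338 and 432, and WT had 235 and 159, against 410 and 431. In all 6 animals at 3 h the ipsilateral value was the lower one. Ptgs2 fell by 0.57 (SE 0.13, adjusted p = 0.0012) at 6 h and by 0.83 (SE 0.13, adjusted p = 9.7e-05) at 3 h. Of 6 other genes of prostaglandin synthesis and reception, 4 rose at 6 h and 3 at 3 h, and 0 fell. Among all genes tested, 24% rose at 6 h and 14.1% at 3 h. Ptges, the inducible PGE2 synthase gene, rose (1.45 ± 0.14 at 6 h and 1.77 ± 0.14 at 3 h). The PGE2 receptor genes Ptger2 (1.58 ± 0.28 and 1.32 ± 0.28) and Ptger4 (1.13 ± 0.20 and 0.65 ± 0.20) rose as well. Pla2g4a, which frees arachidonic acid, rose at 6 h (0.68 ± 0.15) and had 0.06 ± 0.15 at 3 h, and Ptgs1 and Ptger3 did not pass. Without labelled Neil1-KO ipsilateral 6 h replicate 2, Ptgs1, the other cyclooxygenase gene, fell at 6 h (-0.40, adjusted p = 0.019, against -0.28 and adjusted p = 0.10 with it).

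**Figure D2:**
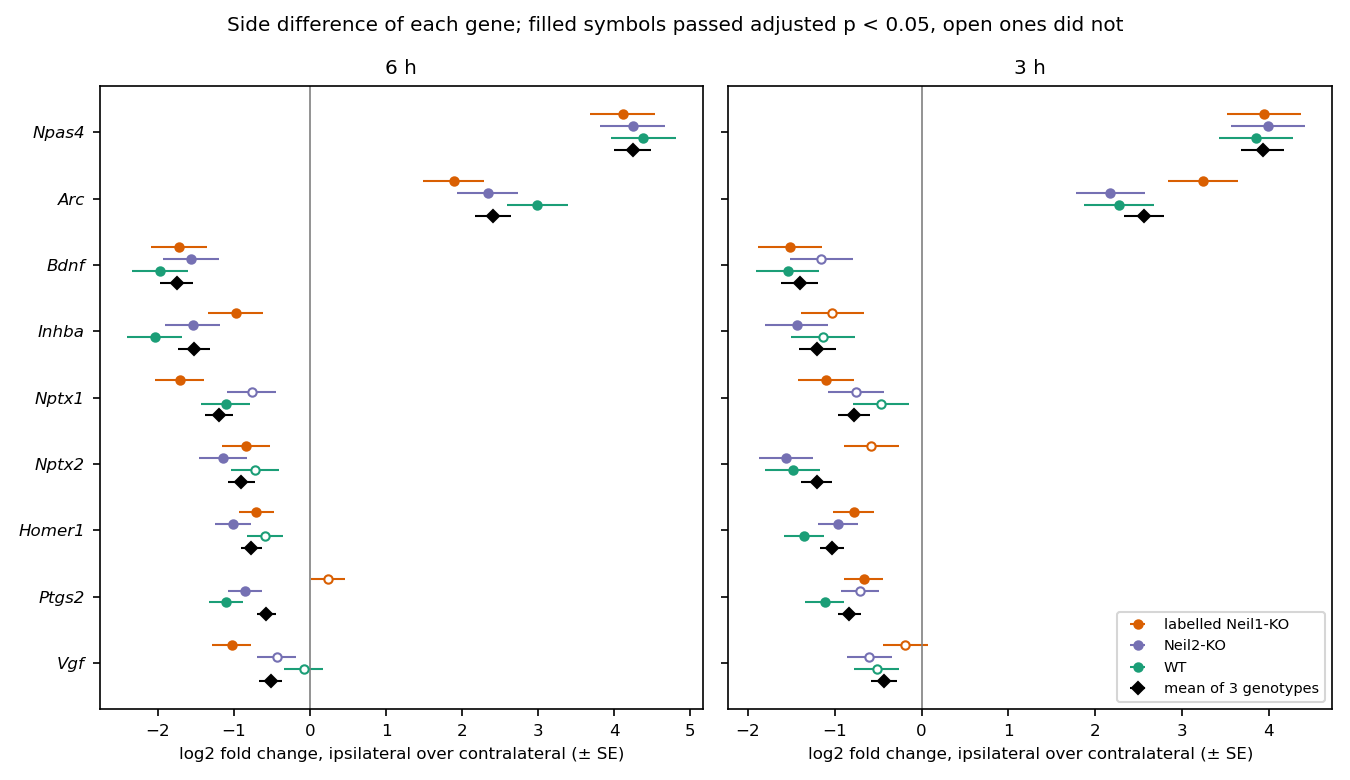
Log2 fold change of ipsilateral over contralateral (± SE of the fit) for each gene, at 6 h (left) and 3 h (right), by genotype (circles, 2 animals each) and as the mean of 3 genotypes (diamonds). Filled symbols passed an adjusted p under 0.05. Npas4 and Arc lie right of 0 in every genotype and time, and Ptgs2 in labelled Neil1-KO at 6 h (0.24 ± 0.22) is the only other value above 0.

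Within single genotypes, with 2 animals each, fewer of the 9 genes passed. At 6 h labelled Neil1-KO had 2 higher and 6 lower (all but Ptgs2), against 17.6% of all genes higher and 21.4% lower. Neil2-KO had 2 higher and 5 lower at 6 h (background 12.2% and 12.6%), where Nptx1 (-0.77 ± 0.32) and Vgf (-0.44 ± 0.26) did not pass. WT had 2 higher and 4 lower at 6 h (10.4% and 10.3%), where Nptx2 (-0.72 ± 0.32), Homer1 (-0.59 ± 0.23) and Vgf (-0.08 ± 0.26) did not pass. At 3 h labelled Neil1-KO had 2 higher and 4 lower (7.20% and 9.85%), and Inhba, Nptx2 and Vgf did not pass. Neil2-KO had 2 higher and 3 lower at 3 h (4.29% and 4.95%), and the genes lower were Homer1, Inhba and Nptx2. WT had 2 higher and 4 lower at 3 h (2.49% and 1.79%), and the genes lower were Bdnf, Homer1, Nptx2 and Ptgs2. The pair called higher was Npas4 and Arc in all 6 cases, at log2 fold changes of 3.85 to 4.39 for Npas4 and 1.89 to 3.24 for Arc. Arc in WT at 3 h lost its call without WT contralateral 3 h replicate 2 (1.34, adjusted p = 0.057).

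These counts rested on few libraries. At 6 h the 8 calls in labelled Neil1-KO became 5 without contralateral replicate 1 or 2 and 4 without ipsilateral replicate 2, and the 7 in Neil2-KO became 4 without ipsilateral replicate 1. At 3 h the 6 calls in labelled Neil1-KO became 2 without contralateral replicate 1 or ipsilateral replicate 1, and the 6 in WT became 2 without contralateral replicate 2 or ipsilateral replicate 2. The 5 calls in Neil2-KO at 3 h became 2 without contralateral replicate 2 or ipsilateral replicate 2 and 3 without ipsilateral replicate 1. They became 9 without labelled Neil1-KO ipsilateral 6 h replicate 1 or 2, which enter that test only through the shared spread. With the animal as a block, 5 further values passed: Bdnf (adjusted p = 0.037) and Ptgs2 (0.043) in Neil2-KO at 3 h, Nptx1 (0.047) in Neil2-KO at 6 h, and Inhba in labelled Neil1-KO (0.0056) and WT (0.0098) at 3 h.

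The study also asked whether loss of either glycosylase changes the response. In ipsilateral libraries over both times, Nptx1 was the only 1 of the 9 genes called between labelled Neil1-KO and WT (-0.82 ± 0.23, adjusted p = 0.032), where 9.31% of all genes were called. Its ipsilateral counts were 2598 and 1037 at 6 h and 1672 and 3278 at 3 h in labelled Neil1-KO, against 3196 and 2219 at 6 h and 4862 and 4210 at 3 h in WT. The groups overlapped. The call was lost with edgeR's quasi-likelihood test (-0.71), in a fit of the compared groups alone, after adding a term for Ttr (-0.63), and without any 1 of 6 libraries. Those were all 4 WT ipsilateral libraries, labelled Neil1-KO ipsilateral 3 h replicate 1, and labelled Neil1-KO ipsilateral 6 h replicate 2, without which the value was -0.49. A count of 2 genes called was reached without labelled Neil1-KO ipsilateral 6 h replicate 1 or 3 h replicate 2. Of the 12 neuron markers, 7 were also called lower in these labelled Neil1-KO libraries, and their part in the Nptx1 difference was not tested. Vgf had -0.56 ± 0.18 in the same comparison (adjusted p = 0.059).

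In the contralateral libraries none of the 9 genes was called between labelled Neil1-KO and WT, where 0.103% of all genes were. At an unadjusted p under 0.05, which 6.76% of all genes had, there were 3 (Nptx2 -0.64 ± 0.22, Homer1 -0.51 ± 0.17 and Ptgs2 -0.55 ± 0.16), and edgeR and DESeq2 called 0. Between Neil2-KO and WT none was called ipsilaterally (0.109% of all genes) or contralaterally (0.0817%), and edgeR and DESeq2 again called 0. Ptgs2 ipsilaterally was the only 1 of these with an unadjusted p under 0.05 (0.62 ± 0.16, adjusted p = 0.39), as 5.80% of all genes had ipsilaterally, and it passed without WT ipsilateral 6 h replicate 1 (adjusted p = 0.0072). The difference of the side responses between either knockout and WT was called for 0 of the 9 genes and for 0% of all genes tested, for labelled Neil1-KO and for Neil2-KO (0%). There edgeR called 0 of the 9 genes and DESeq2 0. For labelled Neil1-KO, DESeq2 gave no adjusted p for Bdnf, Arc, Npas4, Nptx2, Inhba and Ptgs2. Its 0 there covers only Nptx1, Homer1 and Vgf. In limma 1 gene (Ptgs2, 0.90 ± 0.22 for labelled Neil1-KO, adjusted p = 0.30) had an unadjusted p under 0.05, as 14.4% of all genes did. Without WT ipsilateral 6 h replicate 1 it passed, and without labelled Neil1-KO ipsilateral 6 h replicate 1 both it and Nptx1 did. The changes of Npas4 between the sides differed from WT by -0.09 ± 0.42 in labelled Neil1-KO pups, and by -0.004 ± 0.42 in Neil2-KO pups. Those of Arc differed by -0.07 ± 0.40 in labelled Neil1-KO pups, and by -0.38 ± 0.40 in Neil2-KO pups.

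Between 6 h and 3 h, 1 of the 9 genes passed on the ipsilateral side and 0 on the contralateral side. On the ipsilateral side Arc was lower at 6 h (-0.74 ± 0.23, adjusted p = 0.044), the only 1 called, where 12.7% of all genes were. Its 6 ipsilateral libraries had 999 to 3256 (median 2129) at 6 h and 2374 to 4213 (median 3388) at 3 h, which overlap. The Arc call was kept in 8 of the 24 fits without 1 library and lost without the 3 animals of high Xist (-0.55). The libraries whose absence ended it were the 4 WT and 4 Neil2-KO ipsilateral ones, the 4 labelled Neil1-KO contralateral ones, both WT contralateral ones at 6 h, and labelled Neil1-KO ipsilateral 3 h replicate 2 and 6 h replicate 2. Without labelled Neil1-KO ipsilateral 6 h replicate 1 or 3 h replicate 1, 5 of the 9 genes were called, and 2 without either Neil2-KO contralateral 3 h library. Bdnf (-0.62 ± 0.21, adjusted p = 0.059), Vgf (-0.45 ± 0.15, adjusted p = 0.054) and Nptx1 (-0.51 ± 0.19, adjusted p = 0.078) did not pass. On the contralateral side 0 of 9 were called, where 0.332% of all genes were, 4 had an unadjusted p under 0.05 (12.6% of all genes did), edgeR called 0 and DESeq2 called 1. Without WT contralateral 3 h replicate 2 the count was 2, and without any 1 of the 4 labelled Neil1-KO ipsilateral libraries it was 1. Homer1 (-0.62 ± 0.14, adjusted p = 0.062) and Npas4 (-0.74 ± 0.24, adjusted p = 0.22) had the largest differences there. The side response itself differed between 6 h and 3 h for 0 of the 9 genes, where 1.90% of all genes were called, with 0 at an unadjusted p under 0.05 and 0 by edgeR or DESeq2.

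**Figure D3:**
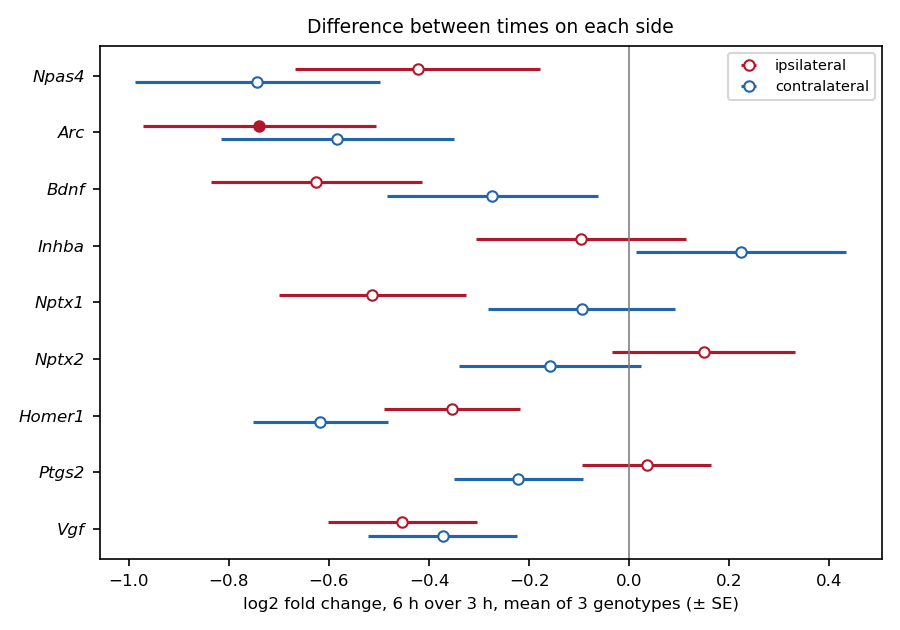
Log2 fold change of 6 h over 3 h (± SE of the fit, mean of 3 genotypes) for each gene on the ipsilateral (red) and contralateral (blue) side. The filled symbol, Arc ipsilaterally (-0.74 ± 0.23), passed an adjusted p under 0.05, and the open ones did not.

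Other genes of the activity programme also moved in both directions. Among all genes tested, 24% rose and 24.7% fell at 6 h, and 14.1% rose and 17.4% fell at 3 h. Of 14 activity-induced transcription factor genes, 9 rose and 1 fell at 6 h, and 9 rose and 2 fell at 3 h, with medians of 2.17 and 2.51. Junb (2.42 ± 0.11 at 6 h and 2.12 ± 0.11 at 3 h) and Fos (4.60 ± 0.32 and 3.95 ± 0.32), which form the AP-1 factor, rose, as did Ier2 (3.21 ± 0.16 and 3.54 ± 0.16) and Nr4a1 (2.93 ± 0.16 and 3.17 ± 0.16). Egr3 fell (-1.23 ± 0.14 and -1.25 ± 0.14). Of 22 other effector genes, 11 rose and 8 fell at 6 h, and 9 rose and 7 fell at 3 h, with medians of 0.41 and 0.00. Gadd45g (2.94 ± 0.14 and 2.13 ± 0.14), Pim1 (2.41 ± 0.13 and 1.79 ± 0.13) and Trib1 (1.90 ± 0.10 and 1.11 ± 0.10) rose, and the sorting receptor gene Sorcs3 fell (-1.41 ± 0.08 and -0.84 ± 0.08). The binding partners of NPAS4 differed in direction: Arnt rose (0.27 ± 0.08 and 0.48 ± 0.08) and Arnt2 fell (-0.59 ± 0.09 and -0.42 ± 0.09). Of all genes tested, 12.7% were called between 6 h and 3 h ipsilaterally and 0.332% contralaterally, in either direction. Between 6 h and 3 h the transcription factor genes were lower at 6 h for 11 of 14 on the ipsilateral side (10 without labelled Neil1-KO ipsilateral 6 h replicate 2) and for 5 of 14 on the contralateral side. Without that library the counts between the sides at 6 h were again 9 and 1 of 14, and 11 and 8 of 22, with Amigo3 called in place of Sorcs1.

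**Figure D4:**
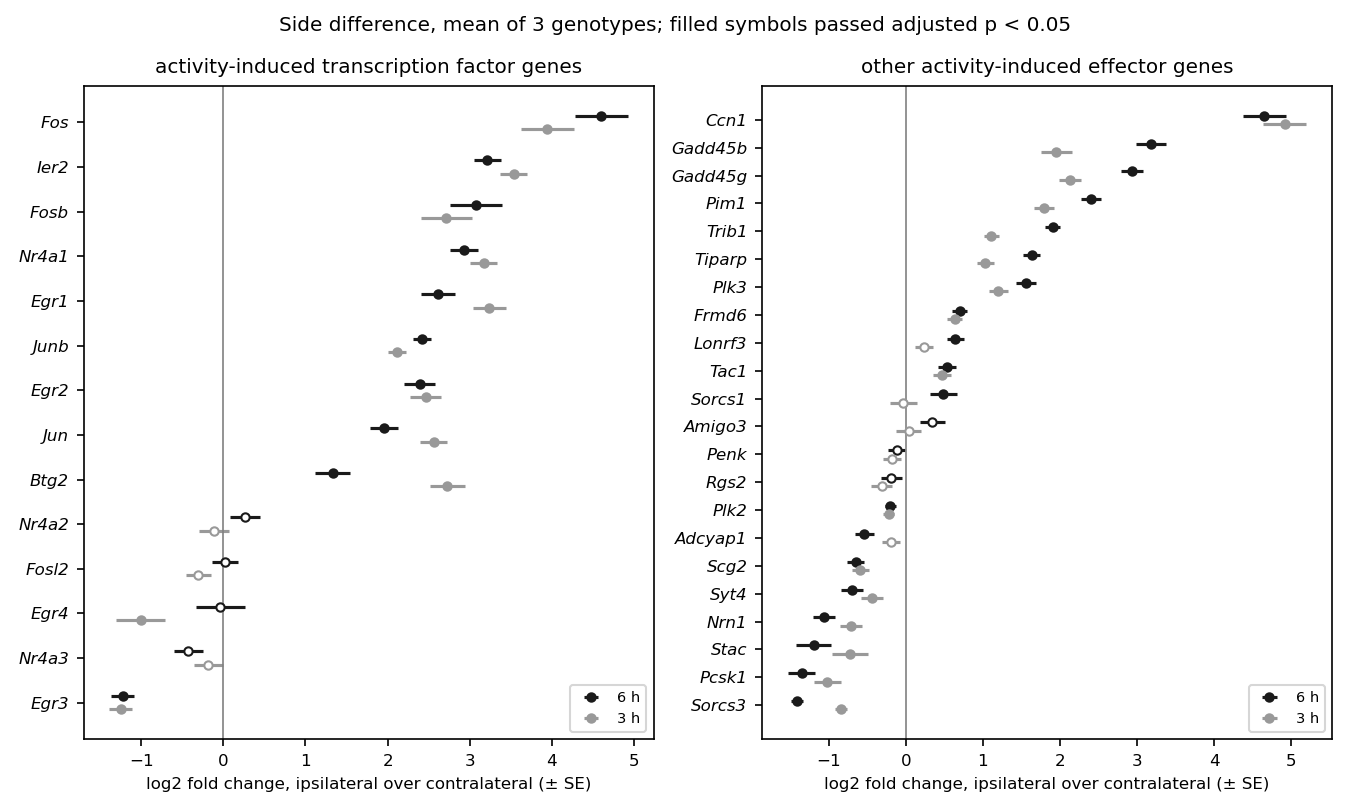
Log2 fold change of ipsilateral over contralateral (± SE of the fit, mean of 3 genotypes) for 14 activity-induced transcription factor genes (left) and 22 other activity-induced effector genes (right), at 6 h (black) and 3 h (grey). Filled symbols passed an adjusted p under 0.05. Fos (4.60 ± 0.32 at 6 h) is at the top of the left panel and Egr3 (-1.23 ± 0.14) at its bottom.

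Neuron markers moved with the side as well. All 12 neuron markers fell at 6 h and 8 of 12 at 3 h, with medians of -0.59 and -0.33, where 24.7% and 17.4% of all genes fell. An example is Map2 (-0.88 ± 0.09 at 6 h and -0.66 ± 0.09 at 3 h). Without labelled Neil1-KO ipsilateral 6 h replicate 2, Stmn2 passed as well at 3 h, with an unchanged value (-0.17). That library enters the 3 h test only through the shared spread. Their sum was 79554 to 147698 in ipsilateral libraries at 6 h and 122209 to 148277 at 3 h, against 160728 to 188844 and 168232 to 184308 in contralateral libraries, with no overlap. The 12 hippocampal subfield markers fell by medians of 1.20 at 6 h (12 of 12 called) and 0.65 at 3 h (8 of 12 called), with Slc17a7, the vesicular glutamate transporter gene, at -1.10 ± 0.13 and -0.62 ± 0.13. Interneuron markers had 1 higher and 1 lower of 8 at 6 h and 0 called at 3 h. Their part in the changes of the 9 genes was not tested, but the 9 genes were also set against the summed neuron markers library by library. Per 1000 counts of these markers, Npas4 had 7.09 to 16.2 ipsilaterally, against 0.338 to 1.04 contralaterally, and Arc had 12.6 to 28.4, against 1.59 to 8.49. Bdnf had 1.62 to 5.08 per 1000 ipsilaterally, against 5.97 to 11.8. For these 3 genes the sides did not overlap on this scale. Of all genes tested, 16% were above without overlap on it and 0.653% below. Inhba was below all contralateral libraries in 10 of 12, Nptx1 in 7, Nptx2 in 6, Ptgs2 in 4, and Homer1 and Vgf in 1 each. Vgf per 1000 had a median of 35.9 ipsilaterally, against 33.4 contralaterally.

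Markers of other cells were also compared between the sides. Of all genes tested, 24% rose and 24.7% fell at 6 h, and 14.1% rose and 17.4% fell at 3 h. Lists with calls near these shares do not stand out from other genes. Endothelial markers rose for 6 of 8 and fell for 1 at 6 h, and rose for 5 of 8 at 3 h. Their sum was 5332 to 12767 ipsilaterally at 6 h, against 4289 to 4854 contralaterally, and 5976 to 7428 at 3 h, against 4074 to 4858, with no overlap at either time. Their part in the changes of the 9 genes was not tested either. Astrocyte markers rose for 4 and fell for 1 of 8 at 6 h and rose for 2 at 3 h, and microglia markers rose for 3 and fell for 2 at 6 h and rose for 1 and fell for 2 at 3 h. Oligodendrocyte markers fell for 1 of 8 at 6 h and 2 at 3 h, and choroid plexus markers for 1 of 10 at 6 h and 0 at 3 h. Markers of thalamus and striatum, which border the hippocampus or lie near it, rose for 4 and fell for 1 of 8 at 6 h and rose for 1 and fell for 1 at 3 h. Without labelled Neil1-KO ipsilateral 6 h replicate 2, the microglia marker Cx3cr1 and the oligodendrocyte marker Cspg4 also fell at 6 h, and the astrocyte marker Aqp4 did not pass at 6 h. The interneuron marker Gad2 (-0.19) and the microglia marker P2ry12 (-0.54) then passed at 3 h with unchanged values. That library enters the 3 h test only through the shared spread.

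Among ipsilateral libraries Arc, which rose, and Bdnf, which fell, varied together. Over the 12 ipsilateral libraries Arc and Bdnf had a Pearson r of 0.87 (permutation p = 0.0004, adjusted 0.0045) and a Spearman rho of 0.93 (permutation p = 0.00011, adjusted 0.0033), with adjustment over 90 relations. Without the 2 libraries farthest from the median Bdnf, r was 0.83, and within 6 h and within 3 h it was 0.78 and 0.93 (6 libraries each). Bdnf and Nptx1 had r = 0.92 and rho = 0.96 (permutation p = 7.0e-05 and 2.0e-05, adjusted 0.0022 and 0.0018, r = 0.95 without the 2 farthest). Of the 36 pairs of the 9 genes, 12 had both adjusted p under 0.05 ipsilaterally, all of them among Bdnf, Arc, Npas4, Nptx1, Homer1 and Vgf, with r of 0.76 to 0.93. The share of other gene pairs that pass was not computed, so this count is not shown to be particular to the set. The permutations ran across genotypes and times. Labelled Neil1-KO ipsilateral 6 h replicate 2 had the lowest ipsilateral value of each of these genes. None of the 9 genes had both adjusted p under 0.05 with the summed neuron markers ipsilaterally. Arc had r = 0.82 with them (permutation p = 0.0037, adjusted 0.017) and rho = 0.61 (permutation p = 0.041, adjusted 0.11). For Arc r was 0.33 without the 2 farthest libraries, 0.74 within 6 h and 0.85 within 3 h. Homer1 had r = 0.81 (permutation p = 0.0051, adjusted 0.021) and rho = 0.60 (permutation p = 0.043, adjusted 0.12), with r = 0.87 without the 2 farthest. Without the 2 farthest, r was higher than over all 12 for Bdnf (0.78, against 0.60) and Npas4 (0.67, against 0.62), and lower for Nptx1 (0.36, against 0.76) and Vgf (0.03, against 0.81). Within 6 h r with the summed neuron markers was 0.39 to 0.75 for Bdnf, Npas4, Nptx1, Homer1 and Vgf. Within 3 h it was 0.80 to 0.90 for these genes. For Nptx2 r was 0.93 within 6 h and 0.27 within 3 h, for Inhba -0.34 and -0.20, and for Ptgs2 -0.61 and 0.27.

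Contralaterally 10 of the 36 pairs had both adjusted p under 0.05, with r of 0.70 to 0.87. The share of other gene pairs was not computed here either. Bdnf and Homer1 had r = 0.87 and rho = 0.92 (permutation p = 0.00012 and 0.00011, adjusted 0.0022 and 0.0033, r = 0.80 without the 2 farthest). Vgf and Ptgs2 had r = 0.85 and rho = 0.90 (permutation p = 0.00073 and 0.0002, adjusted 0.0055 and 0.0045, r = 0.82 without the 2 farthest). Bdnf and Arc had r = 0.53 and rho = 0.50 contralaterally (permutation p = 0.076 and 0.11, adjusted 0.16 and 0.23). Whether a relation differed between the sides was not tested. Genotype, time and depth vary within these 12 libraries.

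**Figure D5:**
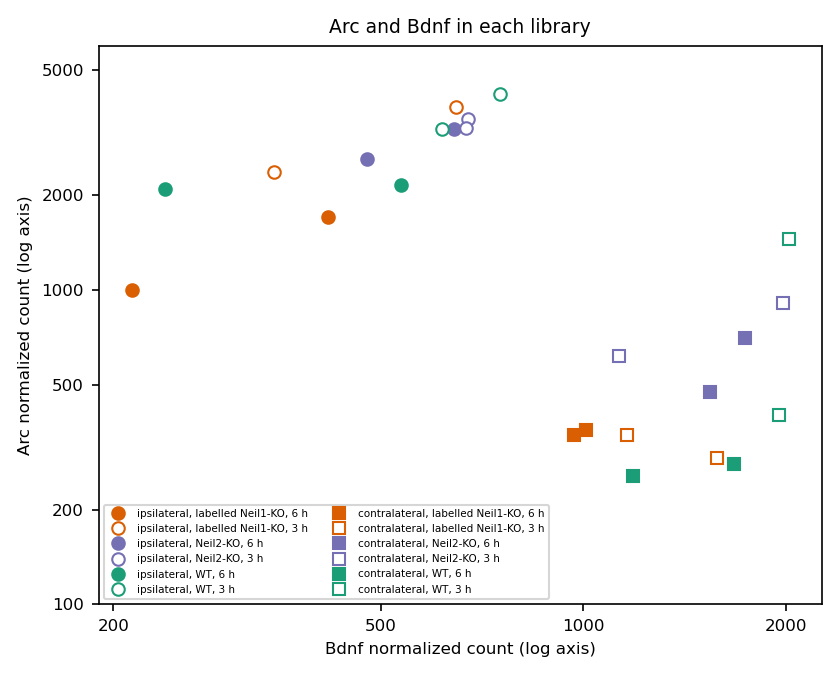
Normalized counts of Arc against Bdnf in each library, both on log axes. Circles are ipsilateral and squares contralateral libraries, filled at 6 h and open at 3 h, coloured by genotype. The ipsilateral libraries run from 213 (Bdnf) and 999 (Arc) upward, with r = 0.87 on the log2 scale, and the contralateral ones lie at higher Bdnf.

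The genes outside the set that tracked each member best over the 24 libraries were found by Pearson r of log2(value + 1). This measure takes in the side difference and is a description. Npas4 was most like Sik1, Rgs16 and Tob1 (r = 0.98 for each), and Arc like Slc25a25, Ier2 and Nr4a1 (r = 0.96 for each). Bdnf was most like Ociad2 (0.96), Nsmce3 (0.95) and Pcsk1 (0.95), and Inhba like Mfap3l (0.92), Tfdp1 (0.91) and Tmem86a (0.91). Nptx1 was most like Syn2, a synaptic vesicle gene (0.99), Nptxr (0.99) and Cabp7 (0.98). Nptx2 was most like Tmem108 (0.93), Grasp (0.93) and Cstf1 (0.92). Homer1 was most like Egr3, Pcsk1 and Scg2 (0.95, 0.95 and 0.94), and genes like Vgf included Aldoa (0.94) and Nrgn (0.94). Ptgs2 had the weakest likeness, with Mbnl2 (0.85), Lrrc58 (0.83) and Trp53inp2 (0.82).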

How the data were processed

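RNA of 24 hippocampal libraries was measured. The deposited signal is a size-factor normalized read count per gene, made by the authors with Trim Galore, HISAT2, SAMtools, featureCounts and DESeq2 on build GRCm39, per the submitters' processing notes. Versions, settings and use of strand are not given in the sources used here. Lines with no gene name (10770 of 33084) were left out. They took 8.41% to 12.5% of the reads. Within each library 100% of values were whole multiples of 1 read (tolerance 1e-06), so whole reads were recovered for edgeR 4.0.16 and DESeq2 1.42.0.

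Genes with a value of at least 10 in at least 2 libraries were tested on log2(value + 1) with limma-trend (limma 3.58.1, R 4.3.3), with 12 group means, 12 residual degrees of freedom and Benjamini-Hochberg adjustment over all 18364 genes. Fold changes are on that scale. There were 17 comparisons, and the fit was tested on simulated data first. Alternatives were another pseudocount, no filter, edgeR, DESeq2, the animal as a block, a fit of the compared groups alone, each library left out, and 2 added after seeing the data (animals with Xist under 1000, a term for Ttr). For comparisons of times or genotypes within 1 side, the block was a term for replicate number and not the animal. Same-numbered libraries of both sides were taken as 1 animal from the series' design text. Xist was above or below 1000 on both sides of each animal alike, and deviations from the group means correlated at -0.006 to 0.27 between sides. Replicates were taken as separate animals. No label says so outright, and each p-value reflects only how far these libraries varied.

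The 9 genes and the lists were chosen with earlier results of these data known. From each list, up to 4 genes with the smallest adjusted p between the sides at 6 h were named, besides the partners of each member and the 3 genes most like it with a mean of at least 50. A list member and a gene of like pattern are not reported here, and the list's counts leave the member out. Egr3 was named as a gene most like Homer1. Correlations used log2(value + 1) and 100000 permutations, two-sided. Promoter letters were read from RefSeq windows of GRCm38.p6, another build than the counts used, and no coordinates were carried between builds.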

Additional observations from a re-analysis of the deposited data

Results flagged for a closer look

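Ptgs2 in labelled Neil1-KO at 6 h was the only gene of the 9 for which both animals of a group differed between the sides in the opposite direction to both animals of the other genotypes. The ratio of ipsilateral to contralateral was 1.191 in replicate 1 and 1.173 in replicate 2. In Neil2-KO at 6 h it was 0.521 and 0.580, and in WT at 6 h 0.576 and 0.374. That difference at 6 h alone was not tested. Over both times the side response of Ptgs2 differed between labelled Neil1-KO and WT by 0.90 ± 0.22 on the log2 scale (limma adjusted p = 0.30 over all genes). This difference did not pass with edgeR (0.89, adjusted p = 0.32) or with the animal as a block (0.90, adjusted p = 0.23). With a term for Ttr it was 0.97 and did not pass (adjusted p = 0.96). It passed without WT ipsilateral 6 h replicate 1 or without labelled Neil1-KO ipsilateral 6 h replicate 1 (lowest adjusted p = 0.027). At 3 h the ratio in labelled Neil1-KO was 0.765 and 0.517.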

How the results depend on the processing

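Over the mean of 3 genotypes 9 of 9 genes were called at 6 h in every fit without 1 library and 8 without animals of high Xist, and 8 to 9 at 3 h in the fits without 1 library. Alternatives moved other counts, and the cause was not tested. The 8 calls in labelled Neil1-KO at 6 h became 4 in a fit of the compared groups alone, 3 without animals of high Xist and 5 with a term for Ttr (the last pair of alternatives added after seeing the data). The 5 calls in Neil2-KO at 3 h became 8 with the compared groups alone. The 1 call between times ipsilaterally became 2 with DESeq2 and 0 without animals of high Xist, and the 0 contralaterally became 1 with DESeq2 and 1 with the compared groups alone. The 1 call between labelled Neil1-KO and WT ipsilaterally became 0 with edgeR, 2 with DESeq2, 0 with the compared groups alone and 0 with a term for Ttr, and the 0 contralaterally became 1 with the compared groups alone.

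Leaving out 1 library gave 4 to 8 side calls for labelled Neil1-KO and 4 to 8 for Neil2-KO at 6 h. At 3 h it gave 2 to 7 in labelled Neil1-KO, 2 to 9 in Neil2-KO and 2 to 7 in WT. Between times it gave 0 to 5 ipsilaterally and 0 to 2 contralaterally. It gave 0 to 2 between labelled Neil1-KO and WT ipsilaterally, 0 to 1 between Neil2-KO and WT ipsilaterally, and 0 to 2 for the difference of side responses in labelled Neil1-KO. With the replicate block, the counts between the sides were 8 (labelled Neil1-KO), 8 (Neil2-KO) and 6 (WT) at 6 h and 7, 7 and 7 at 3 h, and no call was lost. The block changed no call other than the 5 named. For comparisons of times or genotypes within 1 side it was only a term for replicate number. Counts over all genes moved further: in labelled Neil1-KO pups 7156 genes were called between sides at 6 h, against 2685 with the compared groups alone, 2996 without animals of high Xist and 4162 with a term for Ttr. In WT the 3785 at 6 h became 2509 and the 787 at 3 h became 1946 with the compared groups alone (1287 with DESeq2, 1585 without animals of high Xist, 1293 with a term for Ttr). At 3 h the 3130 of labelled Neil1-KO became 1852 and the 1696 of Neil2-KO became 2790 with the compared groups alone. Between labelled Neil1-KO and WT ipsilaterally 1710 became 4 with the compared groups alone, 710 without animals of high Xist and 140 with a term for Ttr; contralaterally 19 became 83 with DESeq2, 117 with the compared groups alone and 10 without animals of high Xist. Between Neil2-KO and WT 20 became 38 with DESeq2 and 9 with the compared groups alone ipsilaterally, and 15 became 37 with DESeq2 and 4 without animals of high Xist contralaterally. Between times ipsilaterally 2325 became 701 with the compared groups alone and 1167 without animals of high Xist. Contralaterally 61 became 268 with DESeq2, 228 with the compared groups alone and 9 without animals of high Xist, and for the difference of side responses between times 348 became 798 with DESeq2 and 24 without animals of high Xist. For the difference of side responses from WT, 0 became 2 with DESeq2 and 1 without animals of high Xist in labelled Neil1-KO, and 1 with DESeq2 and 1 with the compared groups alone in Neil2-KO. With only the bases before the start, 3 promoter windows held the half-site in place of 4. No called value changed direction. edgeR scaling moved the median of all genes by at most 0.04. Depth was no less than 17771293 reads, and the fewest reads for any member in a library were 45 (Npas4, contralateral 6 h).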
